A study of Mus musculus with 2 samples.

Results

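Malat1 and Neat1 are the RNAs at the centre of 2 kinds of nuclear body, and 7 further genes encode proteins of those bodies: Nono, Sfpq, Pspc1 and Rbm14 of paraspeckles, and Son, Srrm2 and Srrm1 of nuclear speckles. The 9 genes were taken by symbol from the annotation used in the deposited tables, out of 55536 annotated genes. No threshold on a measured value was used, but earlier results of these data were known when the genes were chosen. They carry 69 annotated transcripts among 141767 in the table that quantifies transcripts directly from reads.

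The libraries come from primary macrophages derived from the bone marrow of C57BL/6J mice and exposed to 100 ng/ml Lipid A, the Tlr4-binding part of lipopolysaccharide, for 120 min. Total RNA of the nucleoplasm, the soluble part of the nucleus, was depleted of ribosomal RNA and sequenced; another label field names only the nucleus. There are 2 libraries in 1 group, both with the treatment and with the same donor entry. Replicate 1 was made from 1 µg of RNA and replicate 2 from 500 ng, so input and replicate cannot be told apart, and age and sex were not collected. No untreated library was analysed here, so no value below is an induction, and with 1 group no test exists. Values are therefore given for each library, with the mean ± SD (n = 2) where 1 figure is needed. In bulk RNA, fewer cells of a type and less RNA per cell cannot be told apart.

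Nuclear speckles are granules rich in splicing factors, and Malat1 is a highly abundant nuclear RNA that concentrates in them. Paraspeckles form beside speckles around Neat1, whose transcription seeds the body. Neat1 is made in a short polyadenylated form and a long form that shares its start, and the long form is the one needed to build the body. Malat1 and the long form of Neat1 lack a poly(A) tail at the mature end: RNase P cuts each of them below an encoded A-rich tract, which folds back on upstream U-rich tracts into a protective triple helix. Neat1 is known to rise during viral infection and other immune stimulation.

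The ends and junctions of these RNAs decide which transcript a read can be assigned to, so the stretches that tell the forms apart are shown first, 5′ to 3′, from the GENCODE M21 transcripts in mm10 (both genes lie on the minus strand, and T stands for U). The first pair are the 110 bases that end with the last A-rich tract of each long transcript, at chr19:5795982-5796091 for Malat1-201 and chr19:5824708-5824817 for Neat1-201. Capitals mark the U-rich tracts (TTTCTTT or TTTGCTTT, longer runs of T included) and the A-rich tract (AAAGCAAA, longer runs of A included), searched on the transcript strand only.
Malat1-201: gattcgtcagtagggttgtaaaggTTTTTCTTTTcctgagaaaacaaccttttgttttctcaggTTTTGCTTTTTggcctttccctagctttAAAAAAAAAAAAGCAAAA
Neat1-201: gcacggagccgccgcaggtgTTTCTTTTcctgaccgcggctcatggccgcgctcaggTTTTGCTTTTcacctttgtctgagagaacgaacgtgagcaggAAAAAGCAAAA

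Both windows hold 2 U-rich tracts before the A-rich one. Of 138029 annotated transcripts of 110 bases or more, 22 from 17 genes hold that arrangement within 110 bases (0.0159%), and 7.88% hold AAAGCAAA anywhere. The annotation ends Neat1-201 exactly at the A-rich tract, whereas Malat1-201 runs 292 bases further, past the mature end known for this RNA, to an AATAAA that stops 16 bases before the annotated end. A match is a description of the letters only.

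The short form of Neat1 ends at a polyadenylation hexamer. The next pair are the last 60 bases of Neat1-202 (chr19:5842307-5842366), with AATAAA in capitals 14 bases before the end, and the 60 bases that only a longer transcript can hold beyond it (chr19:5842247-5842306). Over all annotated transcripts, 27.8% have AATAAA in the last 60 bases.
Neat1-202 end: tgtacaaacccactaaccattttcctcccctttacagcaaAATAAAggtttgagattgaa
Neat1-201 beyond: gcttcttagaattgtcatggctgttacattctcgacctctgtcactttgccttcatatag

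Malat1 is known as an RNA of a single exon, yet the annotation gives it 3 short spliced transcripts. Malat1-203 lacks 271 bases near the start (intron at chr19:5801967-5802237) and Malat1-202 lacks 1218 bases near the end (chr19:5795786-5797003), a stretch that contains the A-rich tract shown above. Capitals mark the 4 bases on each side of the junction in the first and last lines, and the GT and AG that begin and end the removed stretch in the middle lines.
Malat1-203 junction: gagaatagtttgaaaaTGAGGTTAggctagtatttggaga
Malat1-201 at removal start: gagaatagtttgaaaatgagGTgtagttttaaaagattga
Malat1-201 at removal end: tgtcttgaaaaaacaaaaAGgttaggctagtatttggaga
Malat1-202 junction: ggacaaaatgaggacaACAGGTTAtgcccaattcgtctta

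**Figure D1:**
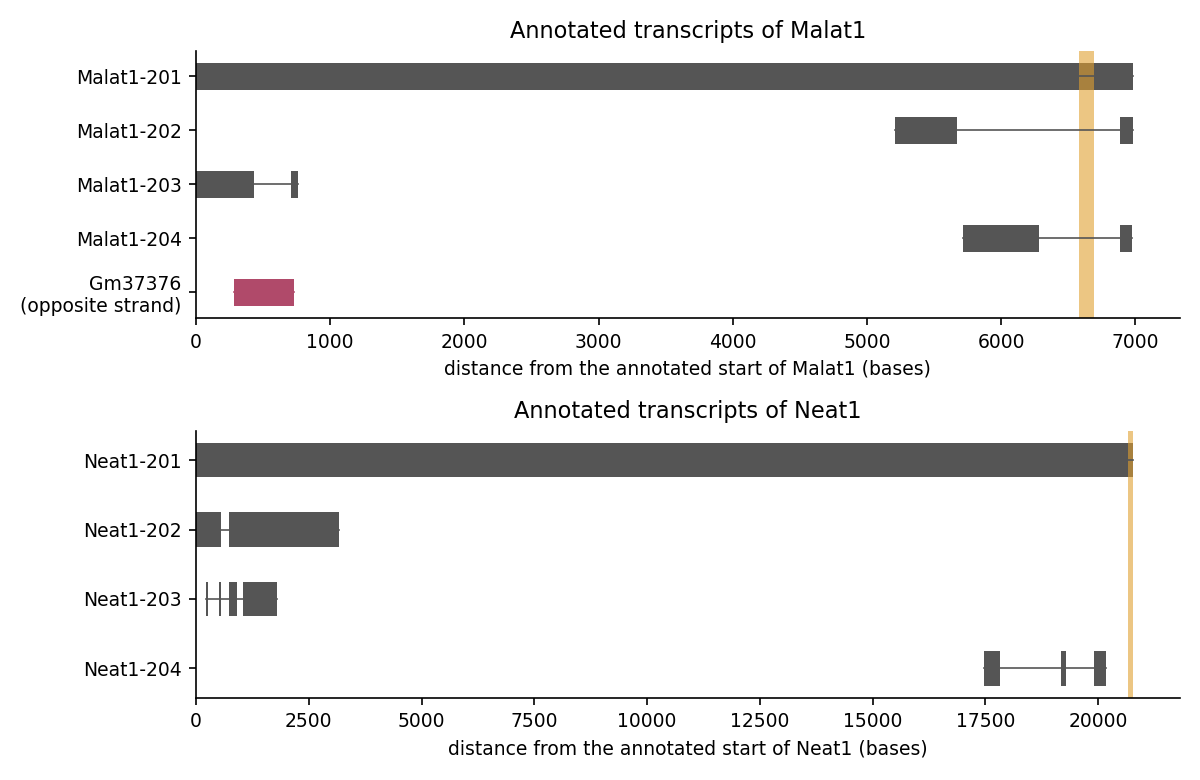
Annotated transcripts of Malat1 (top) and Neat1 (bottom), with boxes for exons and lines for introns, against the distance in bases from the annotated start of each gene. The yellow band marks the 110 bases up to the last A-rich tract. It lies in the intron of Malat1-202 and Malat1-204, and at the very end of Neat1-201, which is 20771 bases long against 3004 for Neat1-202. Gm37376 is a locus annotated on the opposite strand of Malat1.

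All 9 genes were expressed in both libraries, and they ranged from 5.21 to 39331 TPM. Both long noncoding genes reached 1 TPM (abundance per length, scaled to the same total in each table) or more in both libraries, against 8.22% of 10155 annotated long noncoding genes. The 7 protein genes reached it too, against 40.4% of 22028 protein-coding genes. In estimated counts of the gene tables, the 9 genes together took 13.6% of replicate 1 and 10.5% of replicate 2 (12.1 ± 2.21%), nearly all of it Malat1, and the 7 protein genes took 0.359% and 0.258%.

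Malat1 (chromosome 19, 5795690 to 5802672, mm10) was the gene with most counts in each library. It had 1830496 estimated counts in replicate 1 and 1628594 in replicate 2. These were 12.7% of all counts (95% Wilson interval 12.7 to 12.8) and 9.95% (9.93 to 9.96), or 11.3 ± 1.97%; such intervals cover counting error only, since PCR copies cannot be told from separate molecules here. The share was higher in replicate 1, and the gap was far wider than counting error. Malat1 made up 64.9% and 76.0% of the counts of all long noncoding genes, so within that class it stood higher in replicate 2. Its level was 39331 and 24552 TPM (31942 ± 10450), which ranked it 3 and 7 among all genes.

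Neat1 (chromosome 19, 5824708 to 5845478) lies near Malat1 and is transcribed from the same strand. It had 79550 and 51134 counts, or 0.553% (0.550 to 0.557) and 0.312% (0.310 to 0.315) of the libraries, and ranked 8 and 31 by counts. Per length it stood at 1116 and 595 TPM (855 ± 368), at ranks 5 and 4 among long noncoding genes. Replicate 1 was the higher library by count share and by TPM. Malat1 exceeded Neat1 by 35.2-fold in replicate 1 and 41.3-fold in replicate 2 in TPM, and by 68.4-fold and 94.7-fold in counts per kb of the longest transcript.

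The main paraspeckle proteins Nono and Sfpq, paralogs of the DBHS family that bind Neat1 and keep its long form stable, had similar levels. Nono (chromosome X, 101429318 to 101448591) had 2235 and 2332 counts and 117 and 75.8 TPM (96.3 ± 28.9). Sfpq (chromosome 4, 127021324 to 127037013) had 3217 and 2636 counts and 120 and 62.7 TPM (91.3 ± 40.5). Their order turned between the libraries, with Sfpq over Nono at 1.03 in replicate 1 and 0.826 in replicate 2.

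The third DBHS paralog and Rbm14 were the lowest of the 9. Pspc1 (chromosome 14, 56720710 to 56778316), which is not needed for the body to form, had 682 and 599 counts and 28.1 and 11.2 TPM (19.6 ± 11.9). Rbm14 (chromosome 19, 4800569 to 4811634), an RNA-binding protein with a prion-like domain that is needed for paraspeckle assembly, had 494 and 343 counts and 11.2 and 5.21 TPM (8.21 ± 4.24). The higher library of Rbm14 equalled the lower library of Pspc1 to the 3 digits given, so these 2 levels touch.

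In TPM of the gene table, speckle proteins stood above the paraspeckle proteins, with Srrm1 as the exception. Srrm2 (chromosome 17, 23790532 to 23824741), a very large protein that with Son forms the core of speckles, had 26231 and 20476 counts and 424 and 164 TPM (294 ± 184). Son (chromosome 16, 91647506 to 91679221) had 15915 and 13672 counts and 241 and 137 TPM (189 ± 73.8). Srrm1 (chromosome 4, 135320484 to 135353321), a splicing coactivator and the partner of Srrm2, had 2880 and 2164 counts and 103 and 46.1 TPM (74.5 ± 40.2). Srrm2 exceeded Srrm1 by 4.12-fold and 3.55-fold in TPM.

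In the gene table, the order by TPM was Malat1, Neat1, Srrm2, Son, then Nono and Sfpq, then Srrm1, Pspc1 and Rbm14. It was the same in each library, apart from the exchange of Nono and Sfpq. Between Neat1 and Srrm2 the libraries did not overlap (595 TPM or more against 424 or less), and neither did they between Malat1 and Neat1. In CPM per kb of the longest transcript, Neat1 (266 and 150) and Srrm2 (206 and 141) did overlap. Within each library Neat1 was again the higher of the pair. In TPM of the gene table, Srrm2 and Son overlapped, as did Nono, Sfpq and Srrm1, so only the within-library order separates them. For Nono, Sfpq and Srrm1 that order also depended on the table. In the read-based table, replicate 1 had Srrm1 at 101.6, Sfpq at 96.1 and Nono at 83.0 TPM. Replicate 2 there had Nono at 54.2, Sfpq at 46.8 and Srrm1 at 40.9. The median of the 7 protein genes was 117 and 62.7 TPM, against 10.7 and 7.39 for protein-coding genes that passed 1 TPM in each library. In the read-based table the levels were lower for all 9 genes, from 20727 ± 6800 TPM for Malat1 and 499.6 ± 179 for Neat1 down to 4.70 ± 1.98 for Rbm14.

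**Figure D2:**
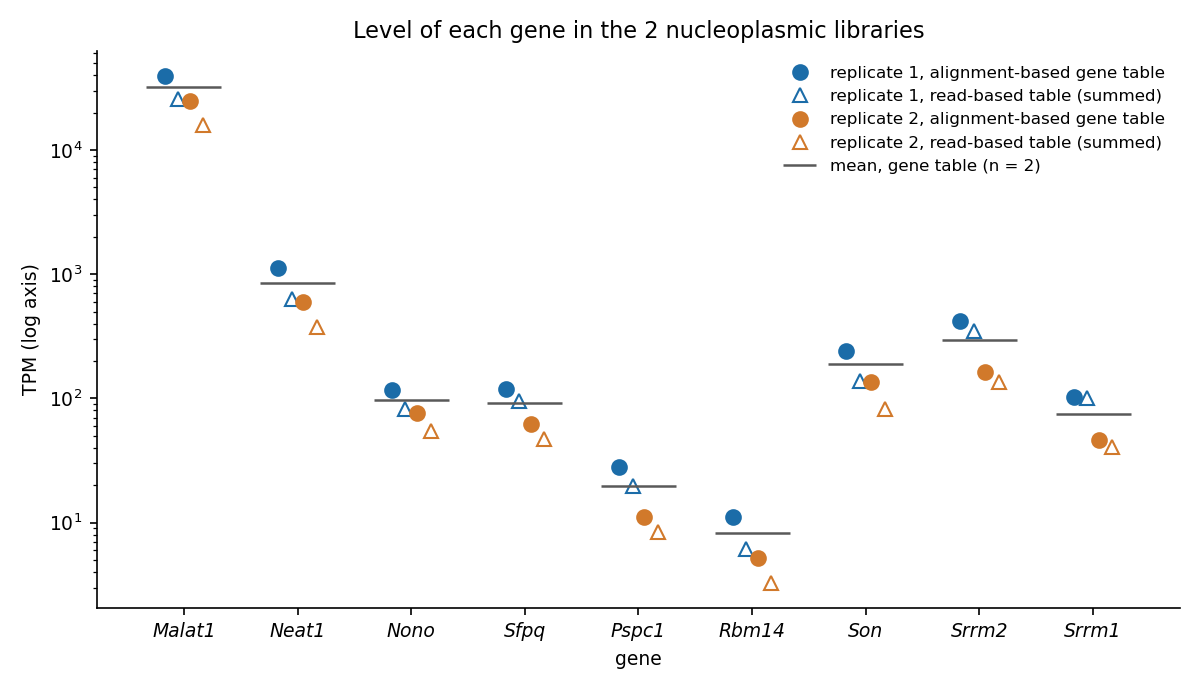
TPM on a log axis for the 9 genes (x axis) in each library. Filled circles come from the alignment-based gene table, open triangles from the read-based table, and the horizontal line is the gene table's mean of 2 libraries. Replicate 1 lies above replicate 2 for every gene in both tables, from 39331 TPM for Malat1 to 5.21 TPM for Rbm14 in the gene table.

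Nearly all Malat1 reads were assigned to the long unspliced transcript, but most of its TPM went to a short spliced one. In the read-based table, Malat1-201 (6983 bases) had 1776200 and 1951630 estimated counts, 93.8% and 93.3% of the gene. Its part of the gene's TPM was 36.5% and 39.0%. Malat1-203 (485 bases) had 117009 and 129390 counts, only 6.18% of the gene in each library, yet 63.5% and 56.9% of its TPM. The division by effective length, 256 and 309 bases for Malat1-203 against 6752 and 6807 for Malat1-201, turns the order around. In the alignment-based table Malat1-203 held 53.3% and 47.2% of TPM from 79269 and 66084 counts.

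The summed TPM of Malat1 therefore moves with a transcript that covers only the first part of the gene. Without that weighting, CPM (counts scaled to the library) per kb of the longest transcript were 18236 and 14245 (16240 ± 2822). Malat1-203 and the 5' part of Malat1-201 share nearly all of their sequence, and reads tell them apart only across the junction printed above or in the 271 bases that Malat1-203 lacks. The antisense-strand locus Gm37376 (chromosome 19, 5801941 to 5802393) overlaps this same stretch. It had 9303 and 0 counts in the gene tables but 42959 and 23212 in the read-based table. Whether counting used strand is not given in the sources used here, so reads of Gm37376 and of Malat1 in this stretch cannot be told apart.

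Malat1-202, the spliced transcript that lacks the triple-helix stretch, was counted almost only in replicate 2. The read-based table gave it 18.0 counts in replicate 1 and 11428 in replicate 2, and the alignment-based one gave it 5.78 (posterior SD 7.60) and 12539 (287). That was 0.546% of the gene's counts and 4.09% of its TPM in replicate 2 of the read-based table, and 7.09% of TPM in the alignment-based one. Malat1-204, singled out after its values were seen, uses the same 3' splice site and also lacks the tract. It had 0 and 52.0 counts in the read-based table and 0 and 4385 in the alignment-based one, so both tables place these transcripts in replicate 2, but they divide the reads differently. A count of 0 allows up to 3 counts by sampling alone. Read assignment adds to this, and the 0 of Malat1-204 in the alignment-based table had a posterior SD of 2.08.

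The short form of Neat1 dominated by TPM, while reads were split between the forms. Neat1-202 (3004 bases) held 82.0% and 89.8% of the gene's TPM in the read-based table (85.9 ± 5.54%), and 79.5% and 88.9% in the alignment-based one. Neat1-201 (20771 bases) held 12.3% and 6.79% (9.56 ± 3.92%), or 13.6% and 7.51%. In counts, the long form had 52.3% of Neat1 in replicate 1 and 35.3% in replicate 2. Of the other 2 transcripts, Neat1-203 had 4.50% and 2.57% of TPM and Neat1-204 had 1.18% and 0.825%. Neat1-202 is annotated as spliced and lacks 166 bases near its start, which only Neat1-201 holds among the 4 transcripts. Reads in that stretch can be assigned only to Neat1-201 among them, whichever RNA they come from.

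The forms of Neat1 differed unequally between these 2 libraries. Neat1-201 had 44776 and 24058 counts, while Neat1-202 had 40175 and 43718. The posterior SD of the long form's counts in the alignment-based table was 104 on 43995 and 72.8 on 19504, which covers the assignment of reads only and not the spread between replicates. The ratio of short to long form in TPM was 6.65 in replicate 1 and 13.2 in replicate 2, and 5.83 and 11.8 in the alignment-based table. Replicate 2 thus held about as much of the short form relative to other genes and less of the long one. On the log2 scale relative to the median gene, the long form stood at -0.95 in the read-based table and -1.16 in the alignment-based one, and the short form at 0.01 and -0.16.

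**Figure D3:**
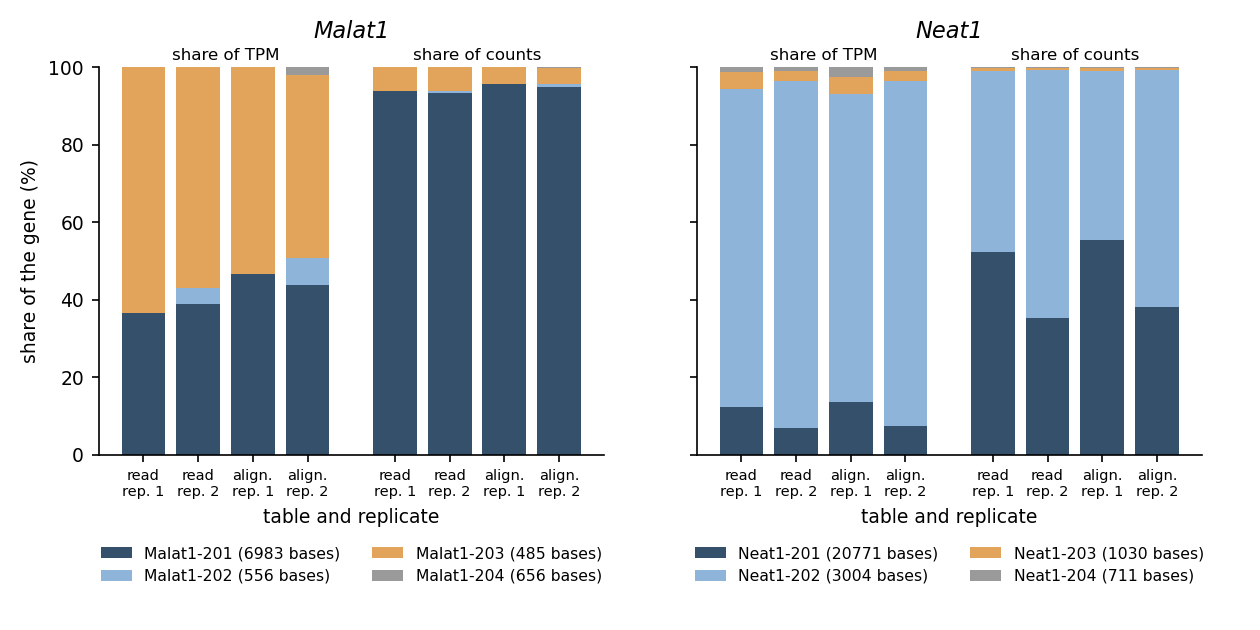
Share of each annotated transcript in its gene (y axis, %), for Malat1 (left) and Neat1 (right), as stacked bars by table (read-based or alignment-based) and replicate, first in TPM and then in counts. Malat1-203 takes 63.5% of TPM but 6.18% of counts in replicate 1 of the read-based table. Neat1-201 falls from 52.3% to 35.3% of Neat1 counts between replicates 1 and 2.

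Among the protein genes, 5 of 7 have transcripts annotated as retaining an intron, and their part in the gene differed widely. Total RNA of the nucleus can hold RNA not yet spliced, which these counts cannot tell apart from a retained intron. The shares below therefore describe the assignment of reads to annotated classes. For each gene the one with the highest share of TPM in the read-based table is shown at a boundary where it reads on between a coding exon and an intron, with the 2 intron bases at the boundary in capitals. By counts, or in the alignment-based table, other transcripts lead in some of these genes. Nono-205 (chrX:101442910-101442949), Son-213 (chr16:91675381-91675420) and Srrm2-209 (chr17:23823771-23823810) read from intron into exon on the plus strand. Pspc1-203 (chr14:56748815-56748854) and Srrm1-213 (chr4:135331701-135331740) read from exon into intron on the minus strand. Each keeps the GT or AG of the splice site that the coding transcripts remove.
Nono-205: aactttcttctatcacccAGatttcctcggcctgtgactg
Son-213: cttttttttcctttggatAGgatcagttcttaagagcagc
Srrm2-209: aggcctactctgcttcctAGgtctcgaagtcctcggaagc
Pspc1-203: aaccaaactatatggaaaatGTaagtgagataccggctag
Srrm1-213: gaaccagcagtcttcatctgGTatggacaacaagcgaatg

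Nono had the largest retained-intron share of the 7. Its 4 such transcripts held 71.5% of its TPM in replicate 1 and 61.6% in replicate 2 of the read-based table (66.5 ± 7.0%), and 46.2% and 36.3% of its counts. Among 3788 protein-coding genes with such a transcript and at least 5 TPM in each library, the median share of TPM was 41.6% and 36.6%, and 87.4% of those genes lay below Nono. In counts Nono stood less high, with 67.8% of genes lower. The coding Nono-201 (2562 bases) held 28.5% and 37.1% of TPM from 1557 and 2219 counts. Nono-205 (687 bases) followed with 25.1% and 20.5%, Nono-202 with 20.5% and 14.3%, Nono-204 with 17.3% and 15.5%, and Nono-203 with 8.66% and 11.3%. Between 37.7% and 49.3% of the bases of these 4 lie outside the exons of coding transcripts.

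Srrm1 came next. Its 6 retained-intron transcripts held 64.0% and 56.9% of TPM (60.4 ± 5.03%) and 36.5% and 31.2% of counts, with 80.7% of the genes below its share of TPM and 59.4% below its share of counts. In the alignment-based table the share fell to 51.7% and 44.0%. The most counted of them was Srrm1-207 (2847 bases), with 739 and 614 counts. Srrm1-213 and Srrm1-215, both under 1 kb, took 18.3% and 17.4% of TPM in replicate 1 from 237 and 140 counts. The coding Srrm1-203 and Srrm1-202 differ by 1 exon in number, and the tables divided reads between them unequally: 957 against 936 counts in the read-based table and 1357 against 443 in the alignment-based one, all in replicate 1.

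Son had the steadiest share. Its 2 retained-intron transcripts held 43.7% and 43.6% of TPM (43.6 ± 0.0728%), near the middle of the 3788 genes (57.8% lower). In counts they held 16.4% and 18.3%, below the median of all such genes (29.1% and 24.2%). Son-214 (3808 bases) had 2386 and 2924 counts, and Son-213 (647 bases) had 436 and 396. The coding transcripts Son-204 and Son-201 had 4299 and 4007 counts in replicate 1 and 4142 and 4337 in replicate 2.

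Srrm2 and Pspc1 lay low by this measure. The share of Srrm2 was 23.8% and 20.7% of TPM (22.2 ± 2.23%) and 5.94% and 3.59% of counts, with 22.7% of genes below it in TPM. Srrm2-210 (8864 bases) and Srrm2-201 (8564 bases), the full-length coding transcripts, together had most of the counts, 18994 and 6030 in replicate 1. Pspc1 had 30.8% and 18.0% of TPM (24.4 ± 9.09%) from a single transcript, Pspc1-203, with 51.2 and 24.5 counts. Its transcript annotated for nonsense-mediated decay, Pspc1-204, had 55.1 and 25.9 counts. Such small counts in short transcripts take large shares of TPM: in counts Pspc1-203 was 6.18% and 2.84% of the gene, and the coding transcripts were 87.2% and 94.2%.

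Sfpq and Rbm14 have no transcript annotated as retaining an intron. Sfpq nevertheless had 60.6% and 53.5% of TPM, and 21.4% and 18.6% of counts, in 5 transcripts of the class processed_transcript, which have no coding frame. The largest was Sfpq-204 (967 bases), with 548 and 471 counts and 27.5% and 27.6% of TPM, and 51.4% of its bases lie outside the exons of the coding Sfpq-201. Sfpq-202 (644 bases), with 55.1% outside, had 220 and 99.7 counts. Intronic bases of Sfpq are therefore outside the retained-intron class of the annotation. The counts of Rbm14 were all in its 2 long coding transcripts, with 237 and 236 for Rbm14-201 and 299 and 244 for Rbm14-202. The overlapping readthrough gene Gm21992 on the same strand had 101 and 63.6 counts, so reads can be split between them.

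**Figure D4:**
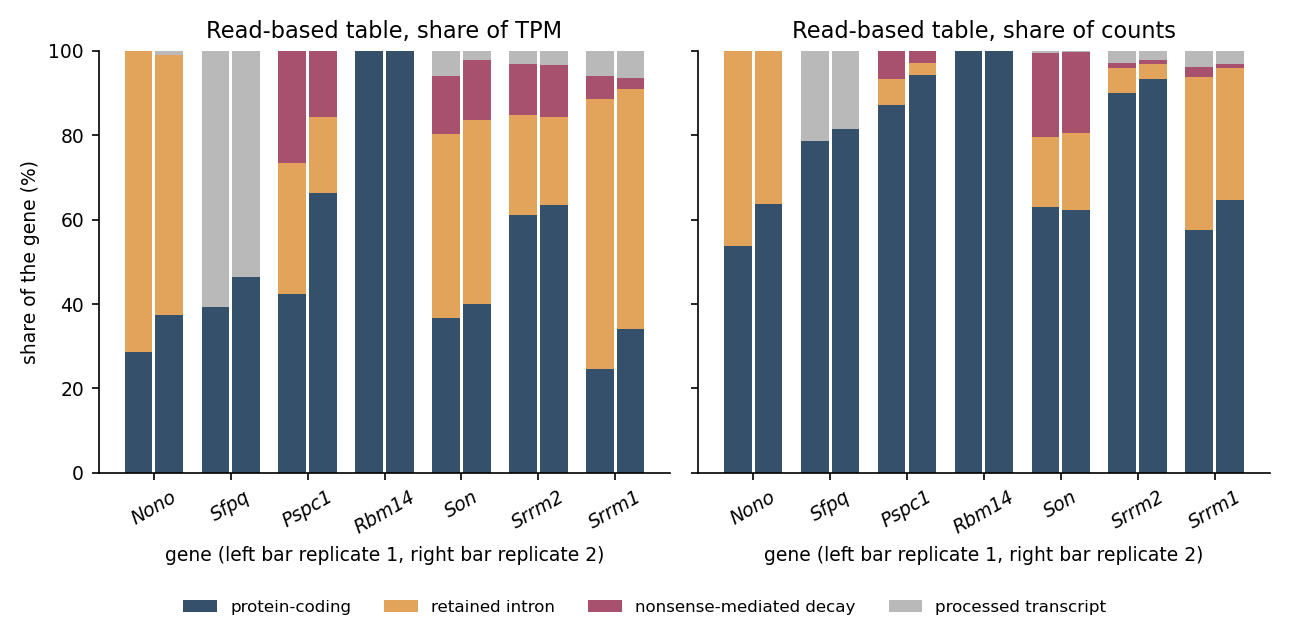
Share of each annotation class in the 7 protein genes (y axis, %), in the read-based table, by TPM (left) and by counts (right), with replicate 1 as the left bar and replicate 2 as the right bar of each pair. The retained-intron part of Nono is 71.5% and 61.6% of TPM but 46.2% and 36.3% of counts. Protein-coding transcripts take a larger part in replicate 2 for 6 of the genes by TPM, and all of Rbm14 in both.

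A short coding transcript of Srrm2 stood out between the libraries. Srrm2-212 (678 bases) had 783 counts in replicate 1 and 5.32 in replicate 2 in the read-based table, and 273 and 0 in the alignment-based one. It took 17.9% and 0.170% of the TPM of Srrm2. The TPM of a gene depends on which transcripts its reads are given to, and the mean transcript length of Srrm2 in the gene table was 4616 bases in replicate 1 and 6107 in replicate 2. That of Pspc1 was 1942 and 2734 bases.

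Relative to other genes, all 9 were lower in replicate 2 in TPM, with log2 ratios from -0.03 to -0.78 and the exceptions under other settings given below. TPM of most genes was lower in replicate 2: the median log2 ratio was -0.58 across the 12655 genes averaging at least 1 TPM, and ratios here are relative to that median. Of the 9 members, 0 were past 1 on the log2 scale in either direction, against 5% of all genes that were lower and 5.32% that were higher in replicate 2. With so few members a count of 0 is near that background, and without a filter on low values Srrm2 passed -1, at -1.06. Malat1 stood at -0.10 and Nono at -0.03, close to the median gene, although Malat1 turned to 0.0038 with a pseudocount of 0.1 and Nono to between 0.02 and 0.14 in 4 alternatives. Son (-0.23), Neat1 (-0.32), Sfpq (-0.34) and Rbm14 (-0.39) were lower in replicate 2. The middle 50% of all genes ran from -0.34 to 0.37, so Rbm14 and the 3 genes described next lay below it and Sfpq at its lower edge.

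Srrm2 (-0.78), Pspc1 (-0.67) and Srrm1 (-0.56) were lowest relative to the median gene, but less so in counts. Only 7.97% of genes had a lower relative ratio than Srrm2, and 10.7% a lower one than Pspc1. With counts scaled by TMM, which do not depend on transcript length, Srrm2 stood at -0.28 and Pspc1 at -0.11, with 29.6% and 40.2% of genes lower. Neat1 moved the other way, to -0.56. Son (-0.14), Sfpq (-0.21), Srrm1 (-0.33) and Rbm14 (-0.45) were again below 0, and Nono stood at 0.14. Across 1134 long noncoding genes the median was -0.23 in relative TPM and -0.42 in TMM-scaled counts.

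**Figure D5:**
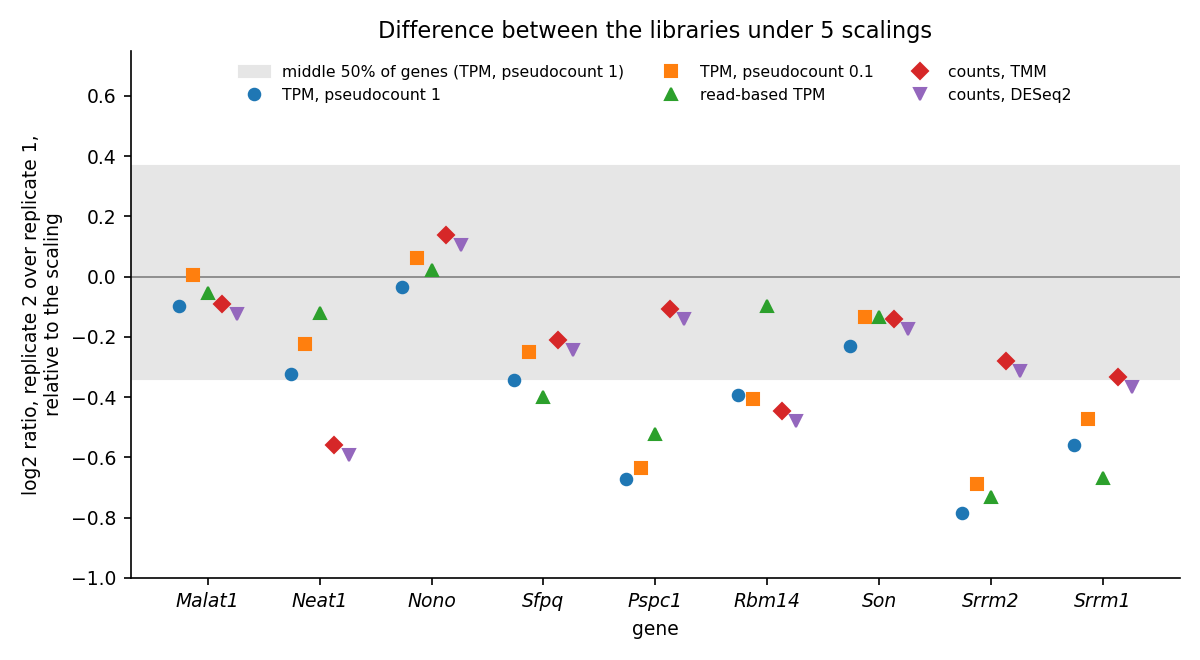
Log2 ratio of replicate 2 over replicate 1 (y axis) for the 9 genes under 5 scalings; the grey band holds the middle 50% of genes in TPM with a pseudocount of 1. None of the 9 reaches -1 under these 5 scalings (Srrm2 is at -1.06 without a filter on low values, not drawn), and the points of Srrm2 run from -0.78 in TPM to -0.28 with TMM, while those of Neat1 run from -0.12 in the read-based table to -0.59 with DESeq2 size factors.

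Among 59 long noncoding genes with 1000 or more counts on average, those nearest to Malat1 in relative log2 ratio were Gm42047 (-0.09), Gm43728 (-0.12) and A530040E14Rik (-0.06). Those nearest to Neat1 were Gm26809 (-0.31), Gm26764 (-0.34) and Dleu2 (-0.35). Each likeness is 1 ratio over 2 libraries.

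The libraries also differed in cell type markers and in RNA of the mitochondrion. Stromal markers, collagen genes among them, summed to 5144 counts in replicate 1 (358 CPM) and 27 in replicate 2 (1.65 CPM). All 10 were lower in replicate 2, where Col3a1, Dcn, Lum and Cxcl12 were at 0. The 10 macrophage markers, all above 1 TPM in both, summed to 27749 and 72115 counts (1930 and 4405 CPM). Mitochondrially encoded genes took 0.424% and 8.70% of counts. Their part in the differences of the 9 genes was not tested. With both the mitochondrial genes and the entries without a gene name left out of the total, the mean share of Malat1 was 11.9%. Markers of T cells, B cells, neutrophils and erythroid cells summed to 35 counts or less per list and library. The gene tables held 14374739 and 16372797 estimated counts, and the libraries differed from one another by far more than counting error (chi-square over degrees of freedom 201).

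Most genes for other proteins of these bodies were expressed in both libraries. Of 28 further paraspeckle protein genes, 26 reached 1 TPM in both libraries, against 40.4% of all protein-coding genes. The list had a median of 33.3 TPM and a median relative log2 ratio of -0.07. Of these 26, 15 were below 0 and 0 were past 1 in either direction, against the 5% and 5.32% of all genes given above. The ratios subtract the median of all genes, so the middle gene stands at 0 by construction. Among the highest were the RNA-binding protein genes Ewsr1 (203 and 95.0 TPM) and Hnrnph1 (183 and 97.9). All 35 further speckle protein genes reached 1 TPM in both libraries, against the same 40.4%, with a median of 50.3 TPM. Their median ratio was -0.17 (-0.04 with TMM), and 25 were below 0, where the middle gene stands. Their highest were the splicing factor genes Srsf5 (418 and 177 TPM), Rbm25 (287 and 162) and Srsf11 (236 and 165). Of the 9 members, Srrm2 and Son were therefore among the highest of the speckle genes, and Pspc1 and Rbm14 lay below the paraspeckle median.

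Genes for the machinery that ends Malat1 and Neat1 were lower. The list held 17 genes for RNase P subunits, Elac2, the Integrator nucleases and the factors that favour or oppose the early poly(A) site of Neat1. Of these, 14 reached 1 TPM in both libraries, against 40.4% of all protein-coding genes. The list had a median of 2.84 TPM and a median ratio of 0.15. Hnrnpk, which favours the long form, had 145 and 99.2 TPM. Cpsf7 had 68.0 and 42.3 TPM and Cpsf6, which with Nudt21 favours the short form, 32.2 and 22.3. In relative log2 ratio these 3 stood at 0.04, -0.09 and 0.08. Nudt21, at a mean of 1.77 ± 0.269 TPM, stood at 0.78 in relative TPM and 0.22 with TMM. Of 18 further nuclear long noncoding genes, with a median of 9.25 TPM, 13 reached 1 TPM in both libraries. Over all annotated long noncoding genes that share was 8.22%. The 16 averaging at least 1 TPM had a median ratio of -0.38. Of these 16, 2 were past -1, against 5% of all genes. They were Airn at -1.10 and H19 at -3.61 (0 TPM in replicate 2), named after their values were seen. Xist (652 and 276 TPM), Mir155hg (323 and 326) and Firre (84.7 and 40.4) were highest in TPM, all below Neat1 in each library. In gene-table counts the order of Xist and Neat1 turned, with 160879 and 99508.5 for Xist against 79550 and 51134 for Neat1.

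At the promoters, 8 of the 9 genes were matched to RefSeq start sites (9 promoters of 300 bases, GRCm38). They held 10 to 40 CpG dinucleotides, against a median of 7 and an upper quartile of 20 over 32851 promoters. Srrm1 was highest and Malat1 lowest, and Malat1 (10) and Sfpq (13) lay below that upper quartile. CCAAT stood on either strand in 6 of the 9, against 37.4% of all promoters, and TATAAA in 0, against 13.6%.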

How the data were processed

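Each library has 3 tables deposited by the authors, quantified against mm10 with GENCODE annotation M21, per the file headers and accompanying notes: a gene table and a transcript table that rest on alignment to the transcriptome, and a read-based transcript table. The authors' expected counts, deposited per feature, are estimated counts and can be fractional. The deposited TPM values divide counts by effective length and scale each table to a fixed total, which raises short RNA, and the deposited FPKM values, scaled by length and depth, served as an alternative. The aligner, the counting tools with their versions and the strandedness: not given in the sources used here.

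Totals were 14374739 and 16372797 estimated counts, of which entries without a gene name took 1.41% and 0.245%; the read-based tables held 21039284 and 27514005. Relative log2 ratios set replicate 2 over replicate 1, each as TPM plus a pseudocount of 1, and subtract the median of genes averaging at least 1 TPM; the pseudocount understates differences of low genes. This step was tested on simulated data. Counts rounded to whole numbers were scaled with edgeR 4.0.16 (TMM) and DESeq2 1.42.0 size factors in R 4.3.3, with 0.5 added for ratios. Tables and figures were made in Python 3.11.15 with pandas 2.3.3, matplotlib 3.10.9, scipy 1.17.1 and numpy 2.4.6. Retained-intron shares cover protein-coding genes with at least 5 TPM in each library.

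The members and lists were chosen with earlier results of these data known. Named were the 9 genes, their transcripts with 5% or more of the gene's TPM in any library and table, the 3 highest genes of each list, the 3 nearest long noncoding genes with 1000 or more counts, and genes overlapping a member; 1 gene this rule names is not reported here. Overlapping genes not described had 0 to 122 counts. Sequences and coordinates came from GENCODE M21 transcripts, promoters from RefSeq (250 bases before to 50 after the start). Neat1 had no promoter entry in the table used here.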

Additional observations from a re-analysis of the deposited data

How the results depend on the processing

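With 2 libraries in 1 group, each mean rests on both, and leaving one out gives the value of the other: 9.95% to 12.7% for the count share of Malat1, 0.312% to 0.553% for Neat1, 10.5% to 13.6% for the 9 genes, and 6.79% to 12.3% for the long form of Neat1 in TPM. No paired analysis was possible because there is a single group. In the read-based table the share of Malat1 was 8.30% and that of the 9 genes 8.87%, beyond the replicate SD. The long form of Neat1 had 43.8% of counts against 9.56% of TPM. The relative log2 ratio of Malat1 turned to 0.0038 with a pseudocount of 0.1. That of Nono turned to 0.14 with TMM, 0.11 with DESeq2 size factors, 0.062 with a pseudocount of 0.1 and 0.022 in the read-based table. No filter on low values moved all 9 ratios lower, since the subtracted median was then -0.31, and took Srrm2 past -1 (-1.06). TPM rescaled over nuclear-encoded protein-coding and long noncoding genes moved all 9 means by more than 1 SD. Counts per kb of the longest transcript, chosen after seeing the data, moved 4 of 9. Shares of TPM in transcripts under 1 kb rest on short effective lengths, and members' small transcript counts limit them most in Pspc1.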

Other observations

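Apart from those already described, the genes that overlap the 9 held few counts. Gm12940, which overlaps the end of Sfpq on the same strand, had 113 and 75 gene-table counts, with 545 and 521 in the read-based table. The microRNA gene Mir5125 inside Srrm2 had 0 in both gene tables but 122 and 117 in the read-based table, although its locus is only 79 bases long. AC122821.1, a processed pseudogene on the opposite strand within Srrm2, had 26 and 45 counts, and 96 and 217 in the read-based table. Elob and Donson, which overlap the ends of Srrm2 and Son on the opposite strand, had 78 and 91, and 121 and 129 counts. Apart from Gm37376, the 4 small loci annotated inside Malat1 and Neat1 had 0 counts in the gene tables.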
